A study of Mus musculus with 37 samples.

Results

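The oocyte-to-embryo transition was followed in CabZ KO mice, whose oocytes had lost Cabin1, a subunit of the Hira complex. RNA-seq libraries of germinal vesicle (GV) oocytes, the fully grown oocytes still arrested in meiosis, were compared with libraries of 2-cell embryos. The 8 libraries, 4 of GV oocytes and 4 of 2-cell embryos, were those of the 37 samples of the study that carried the genotype Cabin1_KO, and the genes compared were the 17956 listed in both tables of values, of which 7000 reached a mean of at least 1 FPKM and were tested. The question was which transcripts were still lost, and which were still gained, when Cabin1 was absent from the oocyte. CabZ KO females carried Zp3-Cre and 2 floxed Cabin1 alleles, so that exon 6 of Cabin1 was removed in growing oocytes, where the Zp3 promoter is active. CabZ Het controls carried the same Zp3-Cre on the C57BL/6 background with 1 floxed and 1 normal allele, and their 4 GV and 4 2-cell libraries served only to show where the KO transition differed. The deletion was thus made in the female germ line. The methods describe pooled oocytes per library while the labels speak of individual cells, the ages of the females are not given in the sources used here, and neither says whether the sequenced 2-cell embryos came from fertilisation or from parthenogenetic activation. Nothing states that the libraries of a group came from separate animals, so the p-values measure the spread between these libraries.

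A fully grown GV oocyte normally silences its transcription and lives on mRNA that it stored while it grew. The paper reports that this silencing was incomplete in CabZ KO GV oocytes, which made more nascent RNA than CabZ Het ones. During meiotic maturation and after fertilisation most of this maternal mRNA is degraded, partly by deadenylation and partly, later on, by enzymes that the embryo itself makes, and zygotic genome activation replaces it with new transcripts, in the mouse with a major wave at the 2-cell stage. The Hira complex, made of Hira, Ubn1 and Cabin1, deposits the histone variant H3.3 into chromatin independently of DNA replication, a form of histone exchange that non-dividing cells such as oocytes rely on.

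Per library, 9108133 to 9995073 reads were counted on genes in KO GV oocytes and 5813147 to 6330244 in KO 2-cell embryos, against 10694036 to 12449698 and 7935105 to 8233935 in the Het groups. Levels are given as FPKM, for which each gene's length runs from its start to its end with the introns, and are shares of the RNA counted in a library, so that fewer cells and less RNA per cell cannot be told apart. The 2 stages were deposited in 2 tables that had been normalised separately. They were brought to the same scale here, but stage and table cannot be told apart within a genotype, whereas a shift that a table gives to a gene in both genotypes cancels in the comparison of the KO with the Het transition. Cabin1 (chr10:75646112-75764342, mm10) was low everywhere. Its level was 0.0242 ± 0.0167 FPKM in KO and 0.119 ± 0.0312 FPKM in Het GV oocytes (SD, n = 4 each; exact permutation test, two-sided, p = 0.0286, which no 4 against 4 libraries can go below). In 2-cell embryos it was 0.134 ± 0.0497 FPKM in KO and 0.322 ± 0.0978 FPKM in Het (exact permutation p = 0.0286). The whole gene was counted, so transcripts lacking only exon 6 would still be seen.

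Several libraries stood apart. KO 2-cell replicate 4 resembled GV oocytes more than the other 3 KO 2-cell libraries did, with Spearman's rho over genes of 0.55 to 0.585 against KO GV libraries, compared with 0.461 to 0.534 for the others. Y-linked transcripts, which need a paternal Y chromosome, summed to 65.0 CPM, reads of a gene scaled to a common library total, in KO 2-cell replicate 1 and to 2.41, 1.74 and 2.94 CPM in replicates 2 to 4, against 52.1 to 142 CPM in every Het 2-cell library. In replicates 2 to 4, only 2, 2 and 3 of the 7 listed Y-linked genes were above 0, while all 7 were above 0 in replicate 1 and in the Het libraries. Of 24 cumulus and granulosa cell markers, 11 were listed in GV oocytes, where they summed to 85.0 to 129.8 CPM in KO and 43.6 to 59.2 CPM in Het. Fshr, the FSH receptor of granulosa cells, held 27.9 to 49.9 CPM in KO and 0.562 to 1.23 CPM in Het oocytes, and Cyp19a1, their aromatase, held 50.9 to 69.3 CPM and 36.7 to 49.8 CPM, both without overlap, while Amh, Amhr2 and Foxl2 were among the 13 not listed there. Star went the other way without overlap, at 0.104 to 0.436 CPM in KO and 0.56 to 1.60 CPM in Het oocytes. The remaining markers listed in oocytes overlapped between the genotypes. In 2-cell embryos 19 were listed, with sums of 102 to 202 CPM in KO and 83.6 to 130.0 CPM in Het. Of 10 blood cell markers, 5 were listed in 2-cell embryos, where they summed to 293 to 891 CPM in KO and 162 to 245 CPM in Het and none was listed in GV oocytes. The highest sum, in KO replicate 4, was mostly Lyz2 (818 CPM), whereas the globin genes Hba-a1 and Hba-a2 were lowest among KO libraries in replicate 4, at 26.5 and 53.2 FPKM against 50.9 to 94.0 and 121 to 197 FPKM in replicates 1 to 3. The part of these differences in the results that follow was not tested.

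The levels of many transcripts still fell, and those of many others still rose, from GV oocytes to 2-cell embryos in CabZ KO. Whether degradation lay behind a fall, or new transcription behind a rise, was not tested. Of the 1173 transcripts that were lost in both genotypes, 175 fell less in KO and 55 fell further by a test of the difference itself. Of the 1051 gained in both, 288 rose less in KO and 51 rose further. Over all 7000 genes tested the change was higher in KO for 14.4% and lower for 19.8%, so the share that fell less was close to that of all genes. Genes were called gained or lost where limma returned a p under 0.05 after Benjamini-Hochberg adjustment together with a difference of more than 1 on the log2(FPKM + 1) scale, the scale of every log2 value in the text, which understates the change of low genes. From KO GV oocytes to KO 2-cell embryos 1537 of 7000 genes were gained (22.0%) and 1771 were lost (25.3%), and the median over all genes was -0.12. In Het 1743 genes were gained (24.9%) and 1835 were lost (26.2%). The KO libraries of the 2 stages did not overlap for 67.8% of the genes, 2186 of them higher and 2560 lower in 2-cell embryos. Shifting all libraries to the same median, which moved the KO median of all genes to 0.08, gave 1822 gained and 1431 lost in KO, so that 56.0% of the calls were gains, where the scale used here gave 46.5%. Without KO 2-cell replicate 4 and Het 2-cell replicates 1 and 4, 1578 genes were gained and 1752 lost in KO. With replicate 1 as the only KO 2-cell library, whose spread then has to be assumed from the other groups, 1612 were gained and 1736 lost.

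Of the genes lost in Het, 1173 were also lost in KO, which is 63.9% of the Het and 66.2% of the KO list. Of the genes gained in Het, 1051 were also gained in KO, which is 60.3% of the Het and 68.4% of the KO list. Only 16 genes lost in Het were gained in KO, and 16 gained in Het were lost in KO. Among the 1835 genes lost in Het, the median change was -1.32 in KO and -1.71 in Het, and 91.1% lay below 0 in both. Among the 1743 genes gained in Het, the median was 1.27 in KO and 1.93 in Het, with 89.7% above 0 in both. These lists were drawn from the Het libraries, which tends to make the Het value the larger of the pair. The difference between the 2 transitions was therefore tested for each gene. The change was higher in KO for 1011 genes (14.4%) and lower for 1383 (19.8%). With libraries shifted to the same median the split turned to 1420 higher and 975 lower, so that 59.3% of these calls were higher in KO where the scale used here gave 42.2%, and the median difference moved from -0.04 to 0.20. Across the 7000 genes Pearson's r between the KO and the Het change was 0.79 and Spearman's rho was 0.75, where genes are not independent replicates, and 76.5% of genes changed with the same sign.

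**Figure D1:**
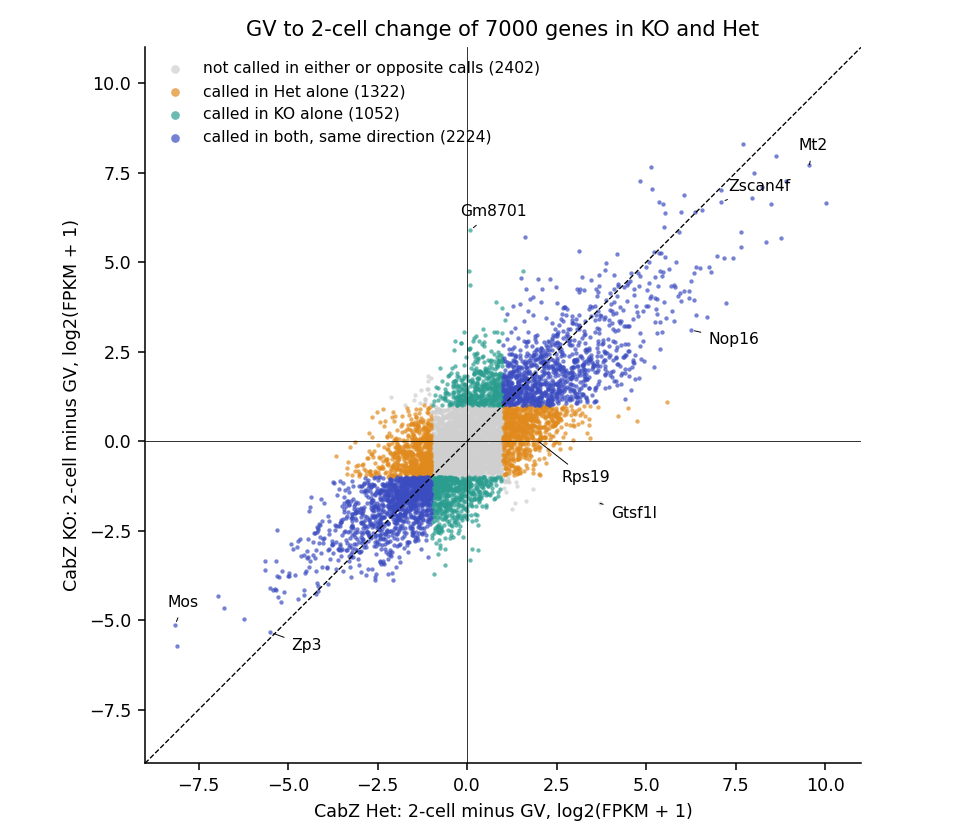
Each point is one of the 7000 genes tested, with its change from GV oocytes to 2-cell embryos in CabZ Het on the x axis and in CabZ KO on the y axis, both as differences of mean log2(FPKM + 1) over 4 libraries per group. Colours mark genes called in both genotypes in the same direction (2224), in KO alone (1052), in Het alone (1322), and the rest (2402), and the dashed line marks equal changes. Mos and Nop16 lie closer to 0 in KO than in Het, Zp3 and Zscan4f lie near the dashed line, and Gtsf1l was gained in Het and lost in KO.

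The change can also be read as a share of all reads. Genes lost in Het held 46.1 to 47.3% of the reads of KO GV libraries and still 13.1 to 18.3% in KO 2-cell embryos, compared with 7.53 to 8.53% in Het 2-cell embryos. Genes gained in Het held 6.33 to 7.08% of the reads in KO GV oocytes and 25.3 to 33.0% in KO 2-cell embryos, against 43.1 to 47.5% in Het 2-cell embryos. KO and Het 2-cell libraries did not overlap in either share, and KO replicate 4 was the library with the most reads on lost genes and the fewest on gained genes. On the lists drawn from the KO libraries instead, the genotypes overlapped. Genes lost in KO held 8.21 to 10.7% of the reads in KO and 9.88 to 12.6% in Het 2-cell embryos, and genes gained in KO held 36.8 to 42.8% in KO and 38.4 to 46.0% in Het. Of the 646 genes lost in Het and not called in KO, the difference itself passed the test for 351, all higher in KO. Of the 676 genes gained in Het and not called in KO it passed for 464, all lower in KO. A further 582 genes were lost and 470 gained in KO alone, and the difference passed for 331 and 271 of them. These genes were chosen by the same changes that the difference compares. Its direction in each class was thus largely set in advance and is no result.

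Transcripts of the egg coat fell strongly without Cabin1. The zona pellucida is the glycoprotein coat that sperm bind, and its genes are transcribed in growing oocytes. Zp3 (chr5:135980099-135988625, mm10), one of its main components, was at 579.5, 516, 361 and 429.9 FPKM in KO GV oocytes (replicates 1 to 4, as in all such series) and at 19.4, 6.18, 10.1 and 9.78 FPKM in KO 2-cell embryos. The stages did not overlap, and Zp3 fell by 5.34 ± 0.31 (SE) on the log2 scale (adjusted p = 3.26e-10), as in Het, where it fell by 5.50. The difference between genotypes was 0.16 ± 0.43 (adjusted p = 0.773). Zp2, which the egg protease ovastacin cleaves after fertilisation to block further sperm, was at 102, 107, 108 and 124 FPKM in KO oocytes and 13, 6.59, 7.25 and 15.4 FPKM in KO 2-cell embryos, whereas Het 2-cell embryos held 3.27, 3.34, 2.54 and 1.72 FPKM. It fell by 3.34 in KO and by 5.35 in Het, a difference of 2.01 ± 0.34 (adjusted p = 0.0002). Zp1, which crosslinks the filaments of the coat, fell from 105 ± 35.9 to 4.99 ± 1.41 FPKM (SD, n = 4, as in all such values) in KO. Of 12 listed zona and egg surface genes, 10 were tested, and 8 were lost and none gained in both genotypes, with a median change of -2.25 in KO and -3.55 in Het. For 5 of the 10 the change was higher in KO and for none lower. Oosp1, an oocyte-secreted protein, went the other way in level, with 51.2, 50.5, 81.1 and 72.9 FPKM in KO oocytes and 96.4, 115, 122 and 174 FPKM in KO 2-cell embryos. It was just under the threshold on size in KO (0.97, adjusted p = 0.0011; above it, at 1.09, without KO 2-cell replicate 1, at 1.01 without KO 2-cell replicate 2, at 1.10 without KO GV replicate 3 and at 1.05 without KO GV replicate 4), and its change was higher than in Het by 1.22 ± 0.32 (adjusted p = 0.00528).

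Growth factors and the transcription factors of oogenesis were likewise lost, to a lesser extent than in Het. Gdf9 and Bmp15 are the paired TGF-beta family ligands by which the oocyte instructs its cumulus cells. Gdf9 was at 353, 455, 238 and 296 FPKM in KO oocytes and at 58.6, 24.6, 32.2 and 77.7 FPKM in KO 2-cell embryos, while Het 2-cell embryos held 10.6, 10.2, 9.83 and 14.1 FPKM. All KO 2-cell libraries lay above all Het 2-cell libraries, and the fall of 2.87 in KO was smaller than that of 4.93 in Het by 2.06 ± 0.41 (adjusted p = 0.000688). Bmp15 was at 300.3, 319, 181 and 231 FPKM in KO oocytes and 76.6, 96.7, 91.4 and 154 FPKM in KO 2-cell embryos. It fell by 1.31 ± 0.28 in KO (adjusted p = 0.0005) and by 3.33 in Het, where the 2-cell mean was 37 ± 9.68 FPKM, and the difference was 2.02 ± 0.40 (adjusted p = 0.000619). Nobox and Figla, transcription factors that switch on oocyte genes, fell by 3.68 and 2.54. H1foo, the oocyte linker histone, was at 1167, 1161, 1117 and 1151 FPKM in KO oocytes and 46.9, 29.9, 29.5 and 91.5 FPKM in KO 2-cell embryos, with replicate 4 the highest, and at 12.5, 6.65, 6.76 and 17.5 FPKM in Het 2-cell embryos. It fell by 4.67 in KO and 6.80 in Het (difference 2.13 ± 0.46, adjusted p = 0.0013). Of 25 listed genes of this kind 15 were tested. In KO 12 were lost and none gained (median -2.54), in Het 13 were lost (median -4.15), and for 12 the change was higher in KO.

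The subcortical maternal complex lies under the egg membrane and is needed for cleavage beyond the first divisions. Its transcripts summed to 19225 to 25856 CPM in KO oocytes and to 5494 to 9287 CPM in KO 2-cell embryos. Het oocytes held 26488 to 29365 CPM and Het 2-cell embryos 2335 to 3687 CPM, so that every KO 2-cell library was above every Het 2-cell library. Of 17 listed genes 15 were tested, 13 were lost in KO and 13 in Het (medians -2.44 and -3.45), and for 10 the change was higher in KO and for none lower. Khdc3 fell by 4.35 ± 0.26 (adjusted p = 5.67e-10), from 350.5 ± 68.6 to 17.4 ± 8.28 FPKM. Padi6, a maternal protein of the egg's fibrous lattices, fell by 3.77, and Nlrp14 by 2.80. Tle6 fell by 3.76 in KO and 5.32 in Het (difference 1.56 ± 0.41, adjusted p = 0.005). Ooep, a member of the complex with a KH-type RNA-binding domain, was at 930.1, 913, 1482 and 1288 FPKM in KO oocytes and 173, 127, 168 and 446 FPKM in KO 2-cell embryos, and at 36.4, 23.3, 21.2 and 54.7 FPKM in Het 2-cell embryos. KO replicate 4 was far above the others, yet all 4 KO libraries exceeded all 4 Het libraries. Ooep fell by 2.48 ± 0.34 in KO and by 5.31 in Het, a difference of 2.83 ± 0.48 (adjusted p = 0.000207).

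**Figure D2:**
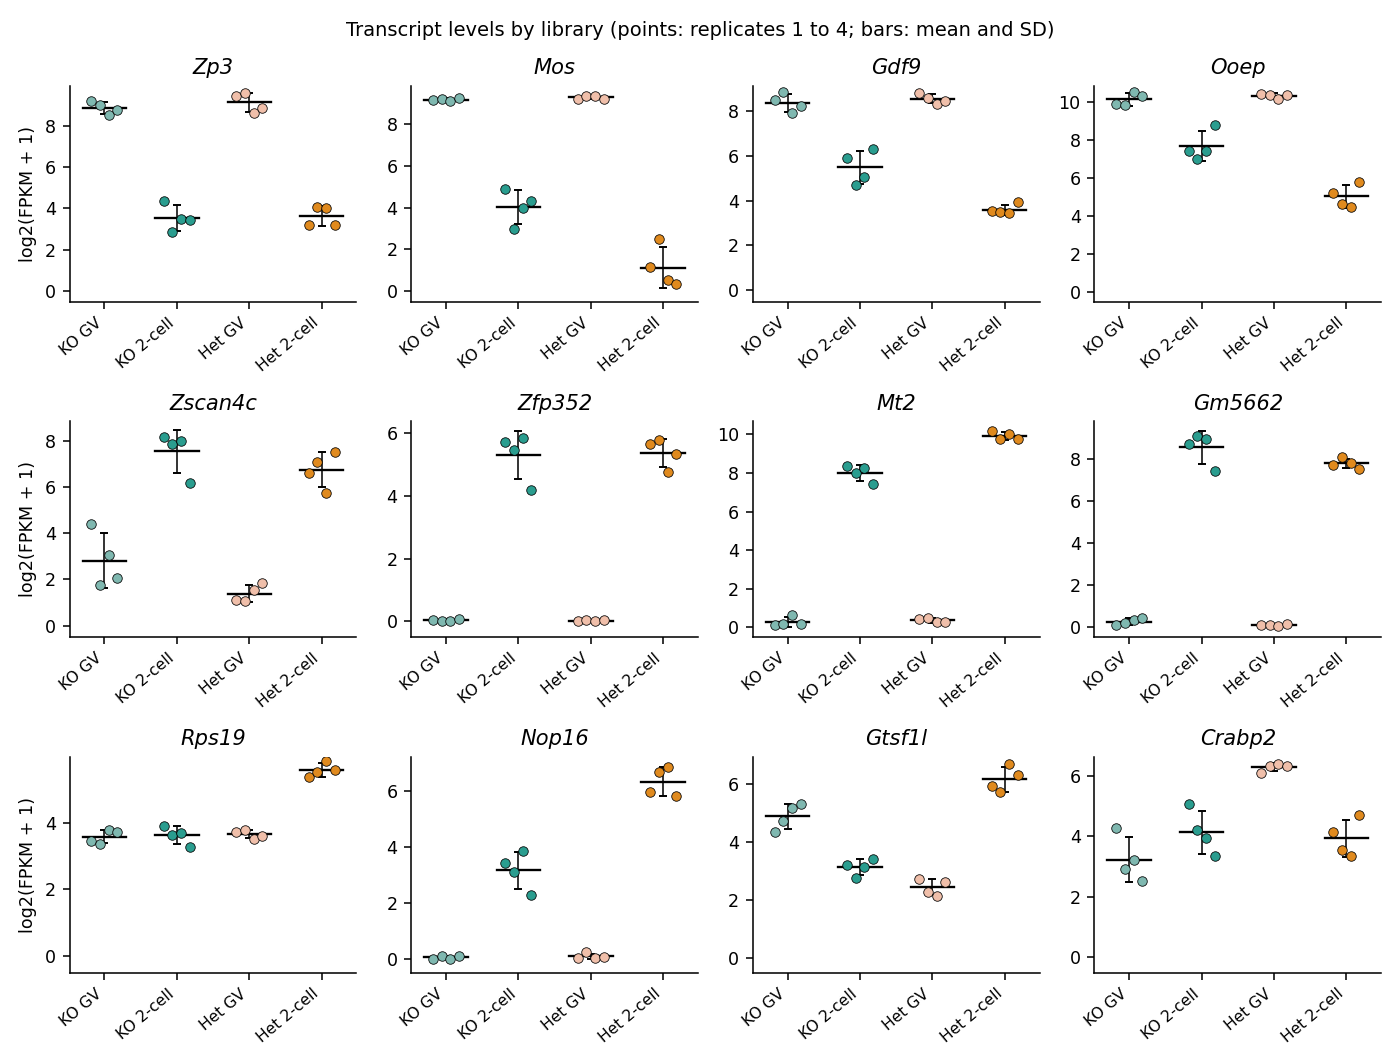
Levels of 12 named genes as log2(FPKM + 1) on the y axis in each library of KO GV, KO 2-cell, Het GV and Het 2-cell (points, replicates 1 to 4 from left to right; bars, mean and SD of 4 libraries). Zp3, Mos, Gdf9 and Ooep fell in both genotypes, Zscan4c, Zfp352, Mt2 and Gm5662 rose in both, and in the lowest row Rps19 and Nop16 were lower in every KO than in every Het 2-cell library while Gtsf1l fell in KO and rose in Het.

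Mos was among the genes with the largest losses in KO. Mos is the kinase that activates the MAP kinase pathway and holds the egg in metaphase II, and its mRNA is a classical target of maternal clearance. Mos (chr4:3870657-3872106, mm10) was at 567, 586, 551 and 619.6 FPKM in KO oocytes and 28.7, 6.83, 14.9 and 18.9 FPKM in KO 2-cell embryos, where Het 2-cell embryos held 1.21, 4.69, 0.432 and 0.251 FPKM. Every KO 2-cell library was above every Het 2-cell library. Mos fell by 5.14 ± 0.40 in KO (adjusted p = 9.64e-09) and by 8.16 ± 0.40 in Het, and the difference of 3.02 ± 0.57 passed the test (adjusted p = 0.000471). Gm813, a gene model of which little is known, had the largest loss, with 472, 389.6, 585 and 495 FPKM in KO oocytes and 19.3, 5.41, 5.93 and 6.55 FPKM in KO 2-cell embryos (fell by 5.73). Gja4, the gap junction protein connexin 37 that couples oocyte and granulosa cells, went from 144 ± 38.9 to 4.06 ± 2.59 FPKM (fell by 4.96). Elobl, an elongin B-like gene, was among the most abundant transcripts lost, with 3061, 2758, 3640.0 and 3464 FPKM in KO oocytes and 166, 139.6, 215 and 174 FPKM in KO 2-cell embryos (fell by 4.22 ± 0.16, adjusted p = 6.05e-12). E330017A01Rik, Gm1070, 2210404E10Rik and the pseudogenes Mrps36-ps1 and Mrps36-ps2 were lost to a like extent (-4.31, -4.30, -4.48, -4.26 and -4.40). Reads of the pseudogene pair may be shared with their parent gene.

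Regulators of meiosis were more often lost than gained in both genotypes. Of 40 listed genes of meiotic arrest, resumption and metaphase II arrest, 28 were tested. In KO 13 were lost and 3 gained (median -0.96), where 25.3% of all genes tested were lost and 22.0% gained. In Het 13 were lost and 2 gained (median -0.84). The change was higher in KO for 4 and lower for 5, where 14.4% of all genes tested were higher and 19.8% lower. Plat, the tissue plasminogen activator whose mRNA is stored untranslated in oocytes, fell by 3.79. Mapk3, a MAP kinase downstream of Mos, was at 37.5, 37.4, 20.2 and 22.6 FPKM in KO oocytes and 22.3, 30.1, 33 and 33.2 FPKM in KO 2-cell embryos, but at 7.54, 11.1, 8.26 and 7.14 FPKM in Het 2-cell embryos. It was not called in KO (0.05, adjusted p = 0.86) and was lost in Het (-2.05), with a difference of 2.10 ± 0.31 (adjusted p = 8.43e-05). Cdk1, the cyclin-dependent kinase that drives entry into M phase, fell by 1.23 ± 0.19 in KO (adjusted p = 1.9e-05), from 13, 13.7, 15.2 and 14.7 FPKM in oocytes to 6.31, 6.24, 7.62 and 2.83 FPKM in embryos. In Het 2-cell embryos Cdk1 was at 25.5, 25.1, 25.3 and 25.5 FPKM, above every library of Het oocytes (12.9 to 15.2 FPKM). Without KO 2-cell replicate 4 the change in KO was -0.97, under the threshold on size.

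Factors that store, deadenylate or degrade maternal mRNA did not move as a block. Of 64 listed, 32 were tested, with 5 gained and 10 lost in KO (median 0.08) and 5 gained and 11 lost in Het (median -0.40, but 0.24 on the CPM scale). The change was higher in KO for 6 and lower for 2, against 14.4% and 19.8% of all genes tested. Zar1, which binds and stores mRNA in the oocyte, fell by 3.59 in KO and 5.65 in Het (difference 2.06 ± 0.44, adjusted p = 0.00116), and its paralogue Zar1l fell by 4.04. Pabpn1l, a poly(A)-binding adaptor of the maternal decay machinery, was at 56.6, 30.4, 20.9 and 24.9 FPKM in KO oocytes and 1.52, 0.0488, 0.822 and 1.1 FPKM in KO 2-cell embryos (fell by 4.16). Pabpn1, the nuclear poly(A)-binding protein of embryonic and somatic cells, took the opposite course. It was at 2.34, 2.69, 1.51 and 1.74 FPKM in KO oocytes and 74.5, 55.8, 76.1 and 27.6 FPKM in KO 2-cell embryos, and rose by 4.19 ± 0.26 (adjusted p = 8.4e-10). Het 2-cell embryos held 199, 204, 184 and 128 FPKM of Pabpn1, above every KO library.

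Of the genes that copy and protect DNA methylation, 8 of 15 listed were tested and 3 were lost in KO, none gained, with a median of -0.72. In Het 5 were lost and none gained (median -1.12, but 0.12 on the CPM scale). The change was higher in KO for 1 and lower for none. Of all genes tested 25.3% were lost in KO, and 14.4% had a higher change in KO. Dnmt1, the maintenance methyltransferase, fell by 2.91 ± 0.15, from 11.2 ± 1.55 to 0.621 ± 0.122 FPKM. Uhrf1, its partner at replication forks, fell by 1.78. Zfp57, which shields imprinted regions, was at 134, 81.7, 104 and 109 FPKM in KO oocytes and 36.6, 38.1, 37 and 70.2 FPKM in KO 2-cell embryos, with replicate 4 the highest. It fell by 1.25 in KO and 2.96 in Het, and the change was higher in KO by 1.70 ± 0.30 (adjusted p = 0.000271).

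The remaining members of the Hira pathway were mixed. Of 15 listed genes 9 were tested, and 1 was gained and 3 were lost in KO (median -0.58). In Het 1 was gained and 1 lost (median 0.03). For 1 the change was lower in KO. Of all genes tested 22.0% were gained and 25.3% lost in KO, and 19.8% had a lower change in KO. The median difference of the list was -0.17, but above 0 under 2 other scalings. H3f3b, which with H3f3a encodes H3.3, was at 558, 507, 576 and 575 FPKM in KO oocytes and 345, 489.9, 437 and 511 FPKM in KO 2-cell embryos and was not called (-0.33, adjusted p = 0.0522), but was lost under quantile normalization (-1.02, adjusted p = 2.7e-06). H3f3a was at 54, 57.8, 74.3 and 68.9 FPKM in oocytes and 33.9, 31.8, 40.2 and 36.1 FPKM in embryos of KO, without overlap, but its change of -0.82 was under the threshold on size. Asf1a, which hands H3-H4 dimers to Hira, fell by 1.62 in KO and 1.83 in Het, and Asf1b was not called (-0.58). Daxx, the chaperone that places H3.3 at repeats together with Atrx, fell by 1.25, while Atrx itself was not called (-0.20). Nasp, a chaperone for soluble H3-H4, was at 10.4, 14.2, 14.7 and 14.7 FPKM in KO oocytes and 7.91, 5.7, 6.95 and 3.22 FPKM in KO 2-cell embryos, and at 17.5, 19.5, 18.6 and 12.3 FPKM in Het 2-cell embryos. Nasp fell by 1.10 ± 0.23 in KO (adjusted p = 0.000406), and its change was lower than in Het by 2.06 ± 0.33 (adjusted p = 0.000124). Without KO 2-cell replicate 4 the change in KO was -0.88, and with libraries shifted to the same median -0.90, under the threshold on size. Dek, a chromatin protein that binds H3.3, was gained in both genotypes (log2 1.74 in KO, 1.87 in Het), and Hirip3 was not called (0.30).

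The Zscan4 genes, zinc finger genes that are transcribed in a burst at the 2-cell stage, were gained without Cabin1. All 7 members that were tested of 9 listed were gained in KO (median 5.97), and 6 were gained in Het (median 5.49). Summed, they held 75.9 to 313 CPM in KO and 134 to 158 CPM in Het oocytes. In 2-cell embryos they held 6835, 6399, 5803 and 1607 CPM in KO replicates 1 to 4 and 1711 to 4268 CPM in Het. KO replicates 1 to 3 were thus above every Het 2-cell library and replicate 4 below them. Zscan4c was at 20.0, 2.34, 7.42 and 3.13 FPKM in KO oocytes and 287, 235, 256 and 71.5 FPKM in KO 2-cell embryos, a mean rise of 25.8-fold. Zscan4d was at 18.2, 7.73, 10.8 and 8.42 FPKM in KO oocytes and 179.8, 134, 145 and 37.8 FPKM in KO 2-cell embryos. Zscan4f was at 6.66, 0.798, 2.2 and 0.652 FPKM in KO oocytes and 478, 434, 414 and 92.8 FPKM in KO 2-cell embryos. In all 3 genes replicate 1 was the highest KO oocyte library and replicate 4 the lowest KO 2-cell library, and the stages did not overlap. Their changes were 4.75 ± 0.54, 3.21 ± 0.40 and 6.68 ± 0.50 (adjusted p = 6.9e-07, 1.86e-06 and 6.39e-09). The KO minus Het difference was -0.64 ± 0.76 for Zscan4c, -1.23 ± 0.56 for Zscan4d and -0.42 ± 0.71 for Zscan4f, and none passed the test (adjusted p = 0.504, 0.0763 and 0.647). For Zscan4d it passed without KO 2-cell replicate 1 (-1.48, adjusted p = 0.0363) or without Het 2-cell replicate 3 (-1.48, adjusted p = 0.0399). Zscan4a and the pseudogenes Zscan4-ps2 and Zscan4-ps3, listed near 0 in KO oocytes, reached means of 98.3 ± 44.6, 108 ± 47.3 and 139 ± 68.9 FPKM. Zscan4-ps1 was the member that differed between genotypes, with 87.1, 97.4, 76.1 and 23.6 FPKM in KO and 38.5, 12.8, 15.2 and 35.8 FPKM in Het 2-cell embryos (difference of the changes 2.90 ± 0.64, adjusted p = 0.00144). These genes are near-identical copies, and how reads were divided among them is uncertain.

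The promoters of 3 Zscan4 genes, which moved together, and of Zfp352, a 2-cell gene outside the family, are shown as the 120 bases before the RefSeq start (GRCm38.p6). Capitals mark the letters TATAAA and CCAAT in the Zscan4 genes, and TAATCC, a core bound by OBOX and OTX homeodomains, in Zfp352.
Zscan4c: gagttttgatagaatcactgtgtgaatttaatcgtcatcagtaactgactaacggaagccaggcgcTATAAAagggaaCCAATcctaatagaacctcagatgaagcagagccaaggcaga
Zscan4d: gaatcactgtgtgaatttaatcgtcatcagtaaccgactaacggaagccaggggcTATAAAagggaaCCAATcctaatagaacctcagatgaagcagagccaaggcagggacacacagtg
Zscan4f: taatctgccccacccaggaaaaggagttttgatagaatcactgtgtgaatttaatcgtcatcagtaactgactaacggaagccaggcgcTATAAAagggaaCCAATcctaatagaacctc
Zfp352: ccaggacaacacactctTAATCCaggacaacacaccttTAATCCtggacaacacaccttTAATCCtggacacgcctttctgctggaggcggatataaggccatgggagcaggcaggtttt
Zscan4c lies at chr7:11005625-11005744 (plus strand), Zscan4d at chr7:11166149-11166268 (minus strand), Zscan4f at chr7:11397795-11397914 (plus strand) and Zfp352 at chr4:90218700-90218819 (plus strand). In each Zscan4 promoter CCAAT began 12 bases after TATAAA within a run of 33 bases that all 3 share, and TATAAA began 54, 65 and 31 bases before the annotated start. In Zfp352 TAATCC began 103, 82 and 61 bases before the start. Searched on both strands over 250 bases before the start, TATAAA was found in 12.4% of all 32851 promoters and in 7.9% of those of the genes tested. It was in 10.1% of those of genes gained in KO and in 9.11% of those gained in both genotypes. CCAAT was in 33.8% of all promoters, 39% of those of genes tested and 39.2% of those gained in KO. TAATCC was found in 6.25% of all promoters and in 5.63% of those of genes tested. It was in 7.87% of those of genes gained in KO, in 9.11% of those gained in both genotypes and in 5.5% of those lost in both. Genes gained in Het, not called in KO and lower in KO by the difference had it in 7.85%. Promoters were matched for 4201 of the 7000 genes. These are matches of letters only.

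Other genes of the 2-cell stage were gained as well. Of 47 listed, 28 were tested, and 22 were gained and 3 lost in KO (median 3.36), against 24 gained and 2 lost in Het (median 3.78). The change was higher in KO for 1 and lower for 6, where 14.4% of all genes tested were higher and 19.8% lower. Zfp352, a zinc finger gene that arose by retrotransposition, was at 0.029, 0.0158, 0 and 0.0638 FPKM in KO oocytes and 52.1, 43.3, 56.3 and 17.1 FPKM in KO 2-cell embryos, with replicate 4 the lowest. Zfp352 rose by 5.27 ± 0.29 (adjusted p = 1.91e-10), and the difference from Het was -0.09 ± 0.41 (adjusted p = 0.861). Usp17lc, a deubiquitinase of a multicopy family, reached 18.1 ± 2.83 FPKM in KO and 18.4 ± 6.2 FPKM in Het 2-cell embryos. Its relative Usp17lb reached 66.9, 38.2, 70.7 and 16.3 FPKM in KO against 104, 162, 133 and 87.6 FPKM in Het, with a lower change in KO (difference -2.09 ± 0.56, adjusted p = 0.00537). Tcstv3 rose by 1.56, whereas Tcstv1 was already at 136, 183, 212 and 191 FPKM in KO oocytes and was not called (-0.24). Gm5039, an eIF1A-like gene, was at 13.1, 20.5, 17.8 and 15.1 FPKM in KO oocytes and 193, 232, 159 and 74.2 FPKM in KO 2-cell embryos, and at 1.19 to 1.94 FPKM in Het oocytes and 35.6, 11.2, 17.5 and 18.9 FPKM in Het embryos. Although the KO libraries were higher at both stages, the rise was 3.13 in KO and 3.08 in Het, and the difference of 0.05 ± 0.46 was not called (adjusted p = 0.93).

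The largest gains in KO were mostly of multicopy gene models. Gm5662 was listed at 0.0535, 0.126, 0.244 and 0.324 FPKM in KO oocytes and at 419, 549, 492 and 168 FPKM in KO 2-cell embryos, a rise of 8.30 ± 0.27 (adjusted p = 1.3e-12). Gm4850, Gm28645, B020004C17Rik, Gm9, BB287469 and Gm2016 rose by 7.98, 7.50, 7.27, 7.10, 7.04 and 7.02 and reached means between 151 ± 54 and 437 ± 176 FPKM. Gm8332 and Gm8300 rose further in KO than in Het. Gm8332 reached 292, 369, 329 and 153 FPKM in KO and 54.5, 30.2, 34.6 and 47.3 FPKM in Het 2-cell embryos (difference 2.51 ± 0.39, adjusted p = 0.000109, but 1.98 and adjusted p = 0.0944 with a pseudocount of 0.1), and Gm8300 183, 265, 173 and 82.6 against 31.5, 19, 22.1 and 42.9 FPKM (difference 2.43 ± 0.40, adjusted p = 0.00016). Mt2, a metallothionein that binds zinc, was at 0.11, 0.12, 0.576 and 0.121 FPKM in KO oocytes and 325, 256, 304 and 169.9 FPKM in KO 2-cell embryos. Its rise of 7.72 ± 0.19 was smaller than that of 9.56 in Het, where 2-cell embryos held 1143, 865, 1037 and 866 FPKM (difference -1.84 ± 0.27, adjusted p = 6.52e-05). Hist1h2ap, a replication-dependent H2A histone gene, rose by 6.86 in KO, to 1049.5 ± 123 FPKM, and Rfpl4b by 6.79.

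Of 38 listed pluripotency and early lineage regulators 18 were tested, with 7 gained and 4 lost in KO and a median near 0 (-0.01, above 0 under 4 other scalings). In Het 7 were gained and 5 lost (median 0.62). The change was higher in KO for 3 and lower for 5. Of all genes tested 22.0% were gained and 25.3% lost in KO, and 14.4% were higher and 19.8% lower in KO by the difference. Obox6 was at 0.0931, 0.0339, 0.0648 and 0.0511 FPKM in KO oocytes and 40.2, 37.1, 52.5 and 21.1 FPKM in KO 2-cell embryos, whereas Het 2-cell embryos held 137, 196, 207 and 133 FPKM. The Obox genes encode homeodomain factors of the oocyte and early embryo, and the rise of Obox6 was 5.12 in KO and 7.18 in Het (difference -2.06 ± 0.30, adjusted p = 7.58e-05). Obox2, a maternal relative, was at 1240.5, 1216, 1792 and 1655 FPKM in KO oocytes and fell by 3.00 to 161, 170.0, 164 and 238 FPKM in KO 2-cell embryos, compared with 60.3, 26.9, 30.2 and 54.2 FPKM in Het.

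The genes that build ribosomes took different courses in the 2 genotypes. Cytosolic ribosomal protein genes summed to 5611 to 8259 CPM in KO oocytes and 6255 to 7130.2 CPM in KO 2-cell embryos, which overlap, while Het oocytes held 5611 to 6629.8 CPM and Het 2-cell embryos 11962 to 15679 CPM. Of 82 listed genes 79 were tested. In KO 10 were gained and 21 lost (median -0.67), in Het 32 were gained and none lost (median 0.79), and the change was lower in KO for 56 and higher for 1. The signs of these medians were the same under every other scaling tried. Rps19 (chr7:24884371-24889807, mm10), of the small subunit, was at 9.99, 9.38, 12.7 and 12.2 FPKM in KO oocytes and 14, 11.3, 12 and 8.7 FPKM in KO 2-cell embryos and was not called (0.05 ± 0.15, adjusted p = 0.8). In Het 2-cell embryos it was at 40.4, 44.9, 56.6 and 47.1 FPKM, above all other libraries, and the difference was -1.88 ± 0.22 (adjusted p = 1.67e-05). Rpl23a, of the large subunit, fell by 1.15 in KO and rose by 1.37 in Het, and its change in KO was -0.97, under the threshold on size, without KO 2-cell replicate 4 and -0.95 with libraries shifted to the same median. Rps9 fell by 1.61 in KO and was not called in Het (0.76). Rps4x fell by 2.16 in KO. The members gained in KO included Rps27l, a p53-responsive paralogue of Rps27, which went from 82.1 ± 14.5 to 662 ± 129.8 FPKM in KO (rose by 2.99), and Rpl10 (2.39), the one member with a higher change in KO. Ribosomal protein genes have many processed pseudogenes that can share their reads.

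Factors that process rRNA and assemble ribosomes differed in the same direction. Of 113 listed 79 were tested, with 7 gained and 26 lost in KO (median -0.47), 29 gained and 7 lost in Het (median 0.53), and a lower change in KO for 51 and a higher change for none. Summed, they made up 11363 to 12111 CPM in KO oocytes and 6407 to 8639 CPM in KO 2-cell embryos. In Het the sum was 9402 to 11931 CPM in oocytes and 14141 to 18376 CPM in 2-cell embryos, so that the stages did not overlap in either genotype and lay in opposite order. Nop16, a nucleolar protein of the large subunit pathway, was listed at 0, 0.0738, 0 and 0.0743 FPKM in KO oocytes and rose to 9.71, 7.62, 13.3 and 3.81 FPKM in KO 2-cell embryos, against 61, 101, 116 and 54.9 FPKM in Het. Its rise was 3.11 ± 0.28 in KO and 6.24 in Het (difference -3.14 ± 0.39, adjusted p = 2.57e-05). Polr1e, a subunit of RNA polymerase I, was at 1.23, 0.71, 2.12 and 0.153 FPKM in KO 2-cell embryos, with the lowest value in replicate 4, and at 9.31, 12.8, 13.9 and 9.58 FPKM in Het. Polr1e was not called in KO (-0.62) and rose by 2.21 in Het (difference -2.83 ± 0.32, adjusted p = 1.56e-05). Exosc4, of the RNA exosome, was at 40.5, 47, 54.2 and 51.2 FPKM in KO oocytes and 3.76, 3.45, 2.97 and 1.4 FPKM in KO 2-cell embryos, against 6.25, 23.8, 22.8 and 15.4 FPKM in Het embryos. It fell by 3.70 ± 0.32 in KO (adjusted p = 2.8e-08), and the change was lower than in Het by 2.78 ± 0.45 (adjusted p = 0.000145). Fcf1, which acts on 18S rRNA processing, was at 35.7, 32.1, 44.6 and 39.4 FPKM in KO oocytes, 3.24, 3.45, 7.14 and 2.33 FPKM in KO 2-cell embryos and 30.8, 34.5, 48.3 and 28.7 FPKM in Het 2-cell embryos (difference -3.16 ± 0.32, adjusted p = 8.36e-06). Noc4l fell alike in both (-3.51 and -3.27).

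**Figure D3:**
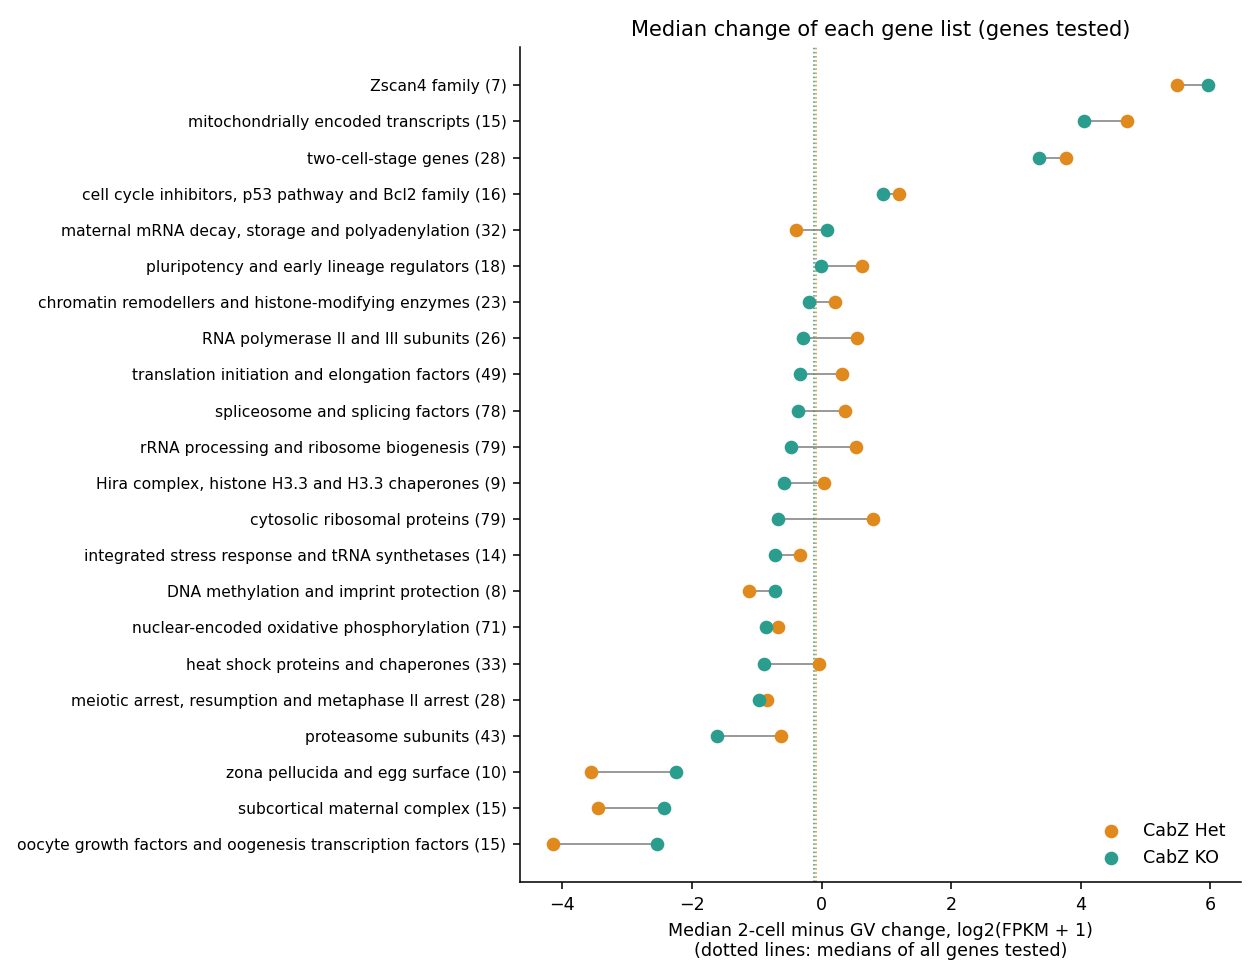
Median change from GV oocytes to 2-cell embryos of each gene list (rows, with the number of genes tested in brackets), on the x axis as the difference of mean log2(FPKM + 1), in CabZ KO and CabZ Het; dotted lines mark the medians of all 7000 genes (-0.12 in KO, -0.09 in Het). Zona, growth factor and subcortical maternal complex medians lie less far below 0 in KO, those of Zscan4 and 2-cell genes lie above 0 in both, and the ribosome lists lie below 0 in KO and above 0 in Het.

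Most subunits of the proteasome, which degrades ubiquitinated proteins, were lost in KO. Of 49 listed 43 were tested, with 29 lost and 2 gained in KO (median -1.62), 14 lost and 4 gained in Het (median -0.63), and a lower change in KO for 21 and a higher change for none. They summed to 8953 to 10448 CPM in KO oocytes and to 2515 to 2923 CPM in KO 2-cell embryos, below the 4469.7 to 6732 CPM of Het 2-cell embryos. Psmc5, an ATPase of the regulatory particle, fell by 3.71 ± 0.25, from 48.8 ± 2.73 to 2.93 ± 1.19 FPKM. Psmb1, of the catalytic core, was at 24.9, 20.7, 28.5 and 25.7 FPKM in KO oocytes and 6.28, 6.52, 7.79 and 1.63 FPKM in KO 2-cell embryos, while Het embryos held 18.5, 26.5, 26.6 and 21.7 FPKM. Psmb1 fell by 2.11 in KO and was not called in Het (-0.04), with a difference of -2.07 ± 0.39 (adjusted p = 0.000491). Psmd7 was not called in KO (-0.16) and was gained in Het (1.88; difference -2.04 ± 0.36, adjusted p = 0.000277).

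Some of the splicing and transcription genes were also lower in KO than in Het by the test of the difference, which 19.8% of all genes tested passed in that direction. Of 104 listed spliceosome genes 78 were tested, 12 gained and 23 lost in KO (median -0.37) and 26 gained and 10 lost in Het (median 0.36), and the change was lower in KO for 26, higher for 1 and not called for 51. Srsf7, an SR protein, was at 8.73, 7.63, 8.54 and 7.07 FPKM in KO oocytes, 17.7, 10.2, 12.1 and 7.69 FPKM in KO 2-cell embryos and 49.9, 54, 68.3 and 37.7 FPKM in Het 2-cell embryos (difference -2.29 ± 0.29, adjusted p = 2.72e-05). Hnrnpa2b1, an RNA-binding hnRNP, fell by 1.09 in KO and rose by 1.04 in Het (difference -2.13 ± 0.27, adjusted p = 2.91e-05). Its change in KO was under the threshold on size with libraries shifted to the same median (-0.89), under quantile normalization (-0.97) and with a pseudocount of 5 (-0.81). Sf3b6, of the U2 snRNP, reached 11.5 ± 3.93 FPKM in KO and 52.3 ± 12.8 FPKM in Het 2-cell embryos, while Snrpg, a Sm protein, rose in both (2.71 in KO, 2.36 in Het). Of 34 subunits of RNA polymerases II and III, 26 were tested, with 5 gained and 7 lost in KO (median -0.29), and the change was lower in KO for 9, higher for 1 and not called for 16. Polr2h, shared by all 3 nuclear polymerases, was at 2.08, 2.32, 3.6 and 2.65 FPKM in KO oocytes, 19.1, 24.4, 24.1 and 9.77 FPKM in KO 2-cell embryos and 73.3, 90.0, 106 and 87.9 FPKM in Het 2-cell embryos (difference -2.29 ± 0.34, adjusted p = 7.25e-05). Polr2k, another shared subunit, fell by 3.03 in KO, to 2 ± 1.13 FPKM, while Het embryos held 15 ± 3.09 FPKM.

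Of 54 translation factors 49 were tested, with 10 gained and 18 lost in KO (median -0.33), 15 gained and 11 lost in Het (median 0.32), and a lower change in KO for 21 and a higher change for 1. Eif6, which keeps the ribosomal subunits apart and is needed for their maturation, was at 43, 49, 37.1 and 39 FPKM in KO oocytes, 11.4, 6.55, 8.64 and 6.42 FPKM in KO 2-cell embryos and 29.5, 53.6, 44.8 and 43.7 FPKM in Het 2-cell embryos. It fell by 2.24 ± 0.21 in KO and was not called in Het (0.13; difference -2.37 ± 0.29, adjusted p = 2.55e-05). Eif3g, of the eIF3 scaffold, fell by 3.23 in KO and 1.10 in Het. Eif1a, which scans for the start codon and is a known 2-cell gene, rose in KO from 0.343 ± 0.17 to 8.38 ± 1.71 FPKM (2.79) and in Het to 19.2 ± 1.42 FPKM (4.07).

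**Figure D4:**
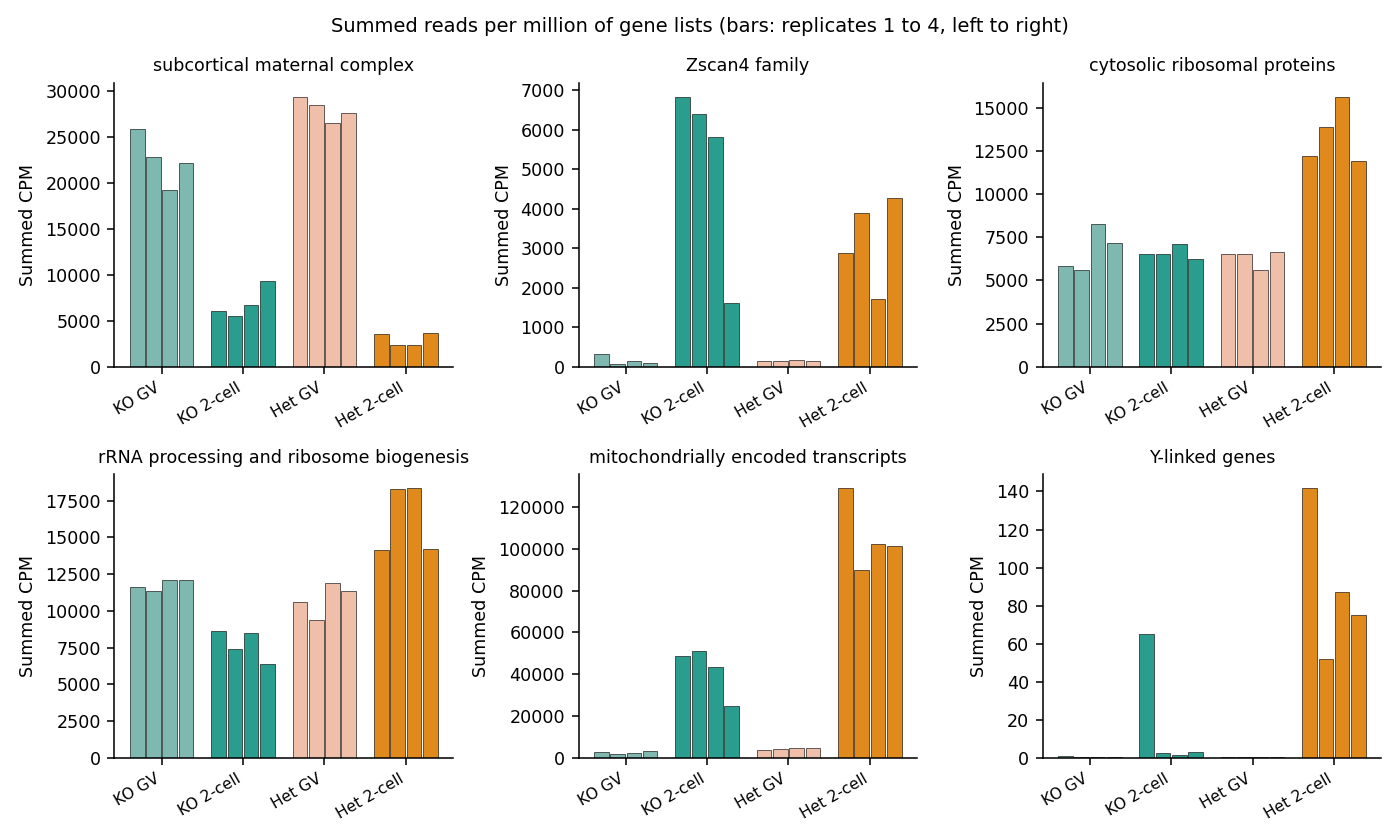
Summed CPM (y axis) of 6 gene lists in each library, with bars for replicates 1 to 4 from left to right in KO GV, KO 2-cell, Het GV and Het 2-cell; the Y-linked panel sums all listed genes of either table. KO 2-cell replicate 4 has the highest subcortical maternal complex sum and the lowest Zscan4 sum of the KO 2-cell libraries, ribosomal protein and rRNA processing sums are lower in every KO than in every Het 2-cell library, and KO 2-cell replicate 1 is the only KO library with Y-linked transcripts near the Het level.

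All 15 mitochondrially encoded transcripts were gained in both genotypes, with a median of 4.06 in KO and 4.71 in Het. They summed to 1865 to 3417 CPM in KO oocytes and 24756 to 50868 CPM in KO 2-cell embryos. Het oocytes held 3914 to 4744 CPM, already above every KO oocyte library, and Het 2-cell embryos 89880.3 to 129055 CPM. The change was lower in KO for 2 of the transcripts and not called for 13. Leaving them out of the totals moved the KO median of all genes to -0.06, with 1634 genes gained and 1708 lost in KO. mt-Nd1, of complex I, rose by 5.29 ± 0.20 in KO (difference from Het 0.07 ± 0.29, adjusted p = 0.853). mt-Cytb, of complex III, rose from 452, 237, 393 and 621 FPKM to 8975, 7804, 8394 and 3451 FPKM in KO, less than in Het by 1.08 ± 0.42 (adjusted p = 0.0392), a direction that turned under quantile normalization (0.28, adjusted p = 0.671). It did not pass with a pseudocount of 0.1 (adjusted p = 0.0515), with no filter on low values (0.0794) or with libraries shifted to the same median (0.0914). The difference was also lost with 9 of the 16 libraries left out singly, with values of -1.10 to -0.76 and adjusted p of 0.0522 to 0.0879 (Het 2-cell replicates 1, 3 and 4, Het GV replicates 1 and 2, KO 2-cell replicate 4 and KO GV replicates 1, 3 and 4). The nuclear genes of oxidative phosphorylation were more often lost than gained. Of 77 listed 71 were tested, with 28 lost and 7 gained in KO (median -0.85) and 29 lost and 6 gained in Het (median -0.66). The change was lower in KO for 15 and higher for 5, where 19.8% of all genes tested were lower and 14.4% higher. Sdhd, of complex II, fell by 3.24 in KO and 3.19 in Het, and Cyc1, of complex III, was not called in KO (-0.73) but rose by 1.36 in Het.

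Of 38 heat shock proteins and chaperones 33 were tested, with 13 lost and 4 gained in KO (median -0.88), against 6 lost and 4 gained in Het (median -0.05, above 0 when mitochondrially encoded genes were left out of the totals). The change was lower in KO for 11 and higher for 1. Hspa8, the constitutive Hsp70, was at 115, 125, 122 and 122 FPKM in KO oocytes and 12.2, 10.1, 15.6 and 5.7 FPKM in KO 2-cell embryos (fell by 3.43 ± 0.22), and Hspb1, a small heat shock protein, rose by 3.90. Of 37 genes of the integrated stress response and tRNA synthetases 14 were tested, with 6 lost and none gained in KO (median -0.71). In Het 3 were lost and 1 gained (median -0.33). The change was lower in KO for 4 and higher for none. Of all genes tested 25.3% were lost and 22.0% gained in KO, and 19.8% had a lower change in KO. Ddit3, the stress-induced transcription factor CHOP, was at 48.1, 49.3, 75.4 and 54.7 FPKM in KO oocytes and 26.9, 30.0, 29.5 and 22.8 FPKM in KO 2-cell embryos, and at 10.6, 4.65, 4.68 and 13.7 FPKM in Het embryos. It fell by 1.02 in KO and 1.56 in Het (difference 0.55 ± 0.37, adjusted p = 0.23). Its change in KO was at the threshold on size and under it without KO 2-cell replicate 4 (-0.94) or KO GV replicate 3 (-0.87) and under 5 other settings (-0.99 to -0.81), and without KO 2-cell replicate 4 and Het 2-cell replicates 1 and 4 the difference passed the test (1.23, adjusted p = 0.000694).

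Of 33 cell cycle inhibitors, p53 pathway and Bcl2 family genes 16 were tested, with 7 gained and 1 lost in KO (median 0.95) and 8 gained and 2 lost in Het (median 1.19). Cdkn1a, the p53 target p21, was at 0.399, 0.38, 0.235 and 0.202 FPKM in KO oocytes and 11.5, 4.34, 4.24 and 1.74 FPKM in KO 2-cell embryos, with replicate 1 in the Het range and the others below it. Het 2-cell embryos held 10.6, 14.1, 14.9 and 12.6 FPKM, and the rise was 2.10 in KO and 3.62 in Het (difference -1.52 ± 0.42, adjusted p = 0.00672). With replicate 1 as the only KO 2-cell library the difference was -0.36, under the threshold on size, with the spread of that library assumed from the other groups. Gadd45a, also a p53 target, rose by 2.16 in KO and 3.63 in Het. Bcl2l10, an anti-apoptotic oocyte gene, was the 1 member lost in KO, from 1162 ± 83.6 to 206 ± 97.7 FPKM (fell by 2.59). Of 71 chromatin remodellers and histone-modifying enzymes only 23 passed the filter, with 3 gained and 5 lost in KO (median -0.19, above 0 under 2 other scalings) and a lower change in KO for 5 and a higher change for 1. Of all genes tested 22.0% were gained, 25.3% lost, 19.8% lower and 14.4% higher. Of the remaining marker lists, 3 of 12 sperm transcripts and 1 of 13 trophectoderm and later embryo markers were tested, and none was called from oocyte to embryo in KO. The trophectoderm and later markers summed to 72.8 to 105 CPM in KO oocytes, 119.6 to 190.4 CPM in KO 2-cell embryos and 33.6 to 93.1 CPM in Het 2-cell embryos, so that KO and Het embryos did not overlap. Gata3, the one tested, was at 2.02 to 2.53 FPKM in KO and 0.0878 to 0.404 FPKM in Het 2-cell embryos, and already at 1.49 to 2.48 FPKM in KO oocytes. Cdx2, Elf5, Gata6 and Pdgfra were also higher in KO than in Het embryos without overlap, but near the floor. In KO embryos Cdx2 was at 0.0733 to 0.319, Elf5 at 0.0282 to 0.0697, Gata6 at 0.281 to 0.847 and Pdgfra at 0.195 to 0.317 FPKM. More genes of any kind were above 0 in KO than in Het 2-cell libraries (21012 to 21832 against 18542 to 20252). Its part in these marker levels was not tested. Gata4 was lower without overlap, at 1.03 to 6.68 CPM in KO and 9.56 to 20.4 CPM in Het embryos. The other listed markers of this kind overlapped.

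Some transcripts rose in KO and not, or less, in Het. Gm8701 (chr10:100330540-100331414, mm10), a gene model, was listed at 0 in every KO oocyte library and was at 64.3, 129.5, 46 and 30.0 FPKM in KO 2-cell embryos, while in Het 2-cell embryos it was above 0 in replicate 2 alone (0, 1.88, 0 and 0 FPKM). The difference was 5.80 ± 0.57 (adjusted p = 7e-06), the highest among genes with at least 10 FPKM in a group. Gm4302, also a gene model, was listed at 0 in every KO oocyte library and was at 45.9, 40.8, 22.6 and 10.7 FPKM in KO and 0.538, 0.0161, 0.27 and 0.655 FPKM in Het 2-cell embryos (difference 4.71 ± 0.45, adjusted p = 7e-06). Gm26917, a noncoding gene model, was at 67, 73.3, 27.7 and 51.3 FPKM in KO and 5.44, 5.14, 1.35 and 6.89 FPKM in Het 2-cell embryos (difference 4.09 ± 0.68, adjusted p = 0.00018). By class, of 499 lincRNA or antisense genes tested, 40.3% were gained in KO and 27.3% in Het, and the change was higher in KO for 196 and lower for 41, while of 5061 protein-coding genes 18.7% were gained in KO and the change was higher for 598 and lower for 1007. The libraries were counted without a stated strand, so antisense genes and their partners cannot be told apart.

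Other transcripts were lost in Het and kept in KO. Gng3, a G protein gamma subunit, was at 92, 92.8, 134 and 112 FPKM in KO oocytes and 123, 171, 162 and 239 FPKM in KO 2-cell embryos, while Het embryos held 14.2, 7.48, 10.5 and 19.2 FPKM, without overlap. Gng3 was not called in KO (0.66) and fell by 2.66 in Het, a difference of 3.32 ± 0.35 (adjusted p = 9.63e-06). Dynlt1b, a dynein light chain gene of a multicopy family, was at 50.9, 33.8, 33.4 and 51.9 FPKM in KO oocytes, 42.1, 26.7, 43.5 and 57.7 FPKM in KO 2-cell embryos and 5.02, 2.71, 7.15 and 6.53 FPKM in Het 2-cell embryos (difference 3.12 ± 0.39, adjusted p = 2.57e-05). For Crabp2, a retinoic acid-binding protein, the genotypes were apart in the oocyte and overlapped in the embryo. KO oocytes held 18.3, 6.53, 8.3 and 4.75 FPKM and Het oocytes 67.8 to 84 FPKM, whereas 2-cell embryos held 32.5, 17.5, 14.4 and 9.16 FPKM in KO and 16.7, 10.6, 9.31 and 25 FPKM in Het. The difference between the changes, 3.27 ± 0.54 (adjusted p = 0.000168), thus came with a lower level in KO oocytes. Its change in KO alone, 0.91, was not called, but passed without KO 2-cell replicate 4 (1.17) or without KO GV replicate 1 (1.26).

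Other changes were lower in KO than in Het. Gtsf1l (chr2:163087034-163087856, mm10), related to a cofactor of the piRNA pathway, was at 19.3, 25.3, 34.5 and 38.2 FPKM in KO oocytes and 8.33, 5.83, 7.88 and 9.62 FPKM in KO 2-cell embryos. In Het it went from 3.4 to 5.66 FPKM to 59, 51.1, 103 and 77.8 FPKM. It fell by 1.74 in KO and rose by 3.71 in Het, a difference of -5.45 ± 0.34 (adjusted p = 1.85e-07), the lowest of all genes with at least 10 FPKM in a group. Mcts2, an imprinted retrogene expressed from the paternal allele, was at 9.2, 7.89, 9.38 and 3.97 FPKM in KO oocytes and 43.3, 3.33, 11.6 and 37.9 FPKM in KO 2-cell embryos, a spread that overlaps the oocytes. Het 2-cell embryos held 153, 141, 199 and 142 FPKM of Mcts2 (difference -4.50 ± 0.78, adjusted p = 0.000249). Mcts2 was higher in KO 2-cell replicates 1 and 4 than in replicates 2 and 3, whereas the Y-linked sum was high in replicate 1 alone. Its change in KO, 1.08, was not called, but passed without KO 2-cell replicate 2 (1.75). Znhit3, a factor of snoRNP assembly, was at 16.1, 18.5, 22.3 and 16.7 FPKM in KO oocytes, 32.7, 23.4, 41.4 and 18 FPKM in KO 2-cell embryos and 194, 341, 336 and 234 FPKM in Het 2-cell embryos (difference -4.19 ± 0.34, adjusted p = 2.66e-06). Rps4l, a ribosomal protein retrogene, fell from 242, 224, 270.1 and 296 FPKM to 50.1, 8.46, 39.2 and 47 FPKM in KO and was not called in Het (0.30; difference -3.35 ± 0.61, adjusted p = 0.000391). Gm12625 rose in both, to 194, 165, 337 and 93.4 FPKM in KO and 1338, 1317, 1276 and 1066 FPKM in Het 2-cell embryos (difference -3.37 ± 0.50, adjusted p = 7.54e-05). Tceal8, a transcription elongation factor-like gene, was already at 69.2, 60.1, 114 and 36.6 FPKM in KO oocytes against 0.268 to 1.06 FPKM in Het oocytes and stayed at 79.7, 67.1, 60.6 and 58.7 FPKM in KO 2-cell embryos, so that no change was called in KO (0.03, adjusted p = 0.959) while it rose by 2.95 in Het.

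Not every transcript could be followed. The table of GV oocytes lists 1075 genes that the 2-cell table does not, of which 56 reached a mean of 1 FPKM in KO, and they held 0.0487 to 0.059% of KO reads. The 2-cell table lists 6347 genes that the GV table does not. Of these 1072 reached a mean of 1 FPKM in KO, 120 reached 10 FPKM, and together they held 1.36 to 2.37% of KO reads. Whether such genes were at 0 in oocytes or left out of the table is not stated, and no change was computed for them.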

How the data were processed

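Libraries were made with SMART-Seq v4 and Nextera XT, and reads were trimmed with TrimGalore, aligned with STAR (2.5.3a per the labels) to mm10 and quantified against RefSeq genes in Partek by the authors, who did not pool libraries. The deposited values are a score rather than FPKM: reads divided by the gene span a second time, scaled to the same total per library, with 0.01 added. Here 0.01 was subtracted and the second division undone, which gave FPKM and CPM. Values of a few reads came out whole, within 0.1 read, for 86.2 to 89.8%, and gave the reads per library. FPKM had been assumed in the planned design, and the planned limma test was kept. The 7000 of 17956 genes, shared by symbol and position, whose level averaged 1 FPKM or more in the 16 libraries were tested as log2(FPKM + 1) with limma 3.58.1 (R 4.3.3) in 1 fit of 4 groups, with Benjamini-Hochberg adjustment over all 7000 and a difference above 1 required for a call. The test was checked on simulated data. Cabin1, below the filter, was tested with an exact permutation test. No pair among the 16 libraries held identical values.

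The genes and lists described were chosen with earlier results of these data known. Of the 178 genes that a fixed rule named (largest changes, largest differences, leading members of each list, and genes named by the study), those shown were taken to cover each list. Gm6803, Gm5612, Gm4027, Gm48985 and Lyz2, listed for 1 stage alone, were chosen after their values were seen. So were the marker genes Fshr, Cyp19a1, Star, Hba-a1, Hba-a2, Gata3, Gata4, Gata6, Cdx2, Elf5 and Pdgfra. Alternatives comprised other pseudocounts, filters, scalings and thresholds, a replicate block and leaving out libraries. Sequences are from RefSeq. Other tables of the study (Hira libraries, chromatin data) were not used here.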

Additional observations from a re-analysis of the deposited data

Results flagged for a closer look

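In 24 of the 364 groups of 4 libraries looked at, 1 library stood apart from the other 3 by Dixon's criterion, where chance gives about 1 group in 20. In KO oocytes, replicate 1 was the highest for Usp17lb (2.34 FPKM). In KO oocytes, replicate 3 was the highest for Mt2 (0.576 FPKM) and Sf3b6 (7.51 FPKM). In KO oocytes, replicate 1 was the lowest for Nasp (10.4 FPKM). In Het oocytes, replicate 1 was the highest for Gm8701 (1.23 FPKM), Gm26917 (4.58 FPKM), Rps4l (181 FPKM) and Gm12625 (1.1 FPKM). In Het oocytes, replicate 2 was the highest for Gm5039 (1.94 FPKM) and Nop16 (0.168 FPKM). In KO 2-cell embryos, replicate 1 was the highest for Gm813 (19.3 FPKM). In KO 2-cell embryos, replicate 3 was the highest for Polr2k (3.67 FPKM). In KO 2-cell embryos, replicate 4 was the highest for Mrps36-ps2 (10.2 FPKM), Ooep (446 FPKM), Zfp57 (70.2 FPKM) and Obox2 (238 FPKM). In KO 2-cell embryos, replicate 4 was the lowest for Zscan4f (92.8 FPKM), Gm28645 (81.4 FPKM) and Eif1a (5.83 FPKM). In Het 2-cell embryos, replicate 2 was the highest for Gm8701 (1.88 FPKM). In Het 2-cell embryos, replicate 4 was the highest for Gdf9 (14.1 FPKM). In Het 2-cell embryos, replicate 3 was the lowest for Zscan4d (59.9 FPKM). Het 2-cell replicate 4 had 8233935 reads on genes, the highest of its group. The cytosolic ribosomal protein sum of Het GV replicate 3 was 5611 CPM, the lowest of its group.

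For 45 of the 54 genes whose difference between genotypes was followed through the alternatives, the change from GV oocytes to 2-cell embryos differed between KO and Het by limma's test of the difference itself, with 4 libraries in each of the 4 groups. The difference, as KO change minus Het change on the log2(FPKM + 1) scale, was above 0 for Gm8701 (5.80), Gm4302 (4.71), Gm26917 (4.09), Gng3 (3.32), Crabp2 (3.27), Dynlt1b (3.12), Mos (3.02), Zscan4-ps1 (2.90), Ooep (2.83), Gm8332 (2.51), Gm8300 (2.43), H1foo (2.13), Mapk3 (2.10), Zar1 (2.06), Gdf9 (2.06), Bmp15 (2.02), Zp2 (2.01), Zfp57 (1.70), Tle6 (1.56) and Oosp1 (1.22). It was below 0 for Gtsf1l (-5.45), Mcts2 (-4.50), Znhit3 (-4.19), Gm12625 (-3.37), Rps4l (-3.35), Fcf1 (-3.16), Nop16 (-3.14), Tceal8 (-2.92), Polr1e (-2.83), Exosc4 (-2.78), Rpl23a (-2.51), Eif6 (-2.37), Rps9 (-2.37), Srsf7 (-2.29), Polr2h (-2.29), Hnrnpa2b1 (-2.13), Usp17lb (-2.09), Psmb1 (-2.07), Nasp (-2.06), Obox6 (-2.06), Psmd7 (-2.04), Rps19 (-1.88), Mt2 (-1.84), Cdkn1a (-1.52) and mt-Cytb (-1.08).

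The 2-cell table also lists genes that the GV table does not, which entered no comparison of stages. Gm6803 had a mean of 155.0 FPKM in KO 2-cell embryos, with 147.9, 216.6, 182.1 and 73.5 FPKM in replicates 1 to 4, against 8.40 to 21.5 FPKM in Het. Lyz2, the lysozyme of macrophages and neutrophils, had a mean of 53.37 FPKM in KO 2-cell embryos, with a range of 1.68 to 163.8 FPKM, and at most 0.706 FPKM in Het.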

How the results depend on the processing

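The counts of genes gained and lost in KO, gained and lost in Het, and higher and lower in KO depended most on the scale. With a pseudocount of 5 they were 755, 840, 976, 850, 403 and 674, and with a mean of at least 5 FPKM required 825, 1047, 908, 983, 604 and 857. Without the threshold on size 2395 genes were gained and 2820 lost in KO, 2782 were lost in Het and 1685 were higher in KO. With CPM in place of FPKM, 2937 were lost in Het and 1895 were higher in KO. The filter left 3136 genes to test and CPM 8536, against 7000, and the removal of the threshold is itself the cause in its alternative. Otherwise the cause was not tested. With 1 library left out, 1503 to 1574 genes were gained and 1718 to 1806 lost in KO, 1696 to 1817 gained and 1803 to 1867 lost in Het, and 948 to 1077 were higher and 1241 to 1541 lower in KO. Fitted to the 8 KO libraries alone, 1536 were gained and 1769 lost in KO. The alternatives without KO 2-cell replicate 4 and Het 2-cell replicates 1 and 4, and with replicate 1 as the only KO 2-cell library, were added after seeing the data, and the latter assumes that the lone library varies like the other groups. They gave 1868 gained and 1823 lost in Het and 1145 higher and 1539 lower in KO in the first, and 889 higher and 1107 lower in KO in the second.

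Of 114 named changes in KO, 94 kept their call under every alternative that left out no library of the comparison, 8 lost it under at least 1 and 12 were newly called. The 8 were lost with a pseudocount of 5, which gave -0.85 for Cdk1, -0.89 for Uhrf1, -0.54 for Daxx, -0.77 for Nasp, -0.62 for Rpl23a, -0.81 for Hnrnpa2b1, -0.92 for Ddit3 and 0.90 for Cdkn1a. Of 54 named differences 49 kept their call under the same alternatives. Those that did not were Zscan4d, newly called with CPM (-1.41), Gm8332, Obox6 (-0.89 as the ratio of mean FPKM), Cdkn1a (-0.91 with a pseudocount of 5) and mt-Cytb, which changed direction under quantile normalization (0.28). Without KO 2-cell replicate 4 and Het 2-cell replicates 1 and 4, 109 changes and 52 differences kept their call, with that of mt-Cytb lost (-0.65) and that of Ddit3 newly called. With replicate 1 as the only KO 2-cell library 105 changes and 49 differences did, and the differences lost were those of Cdkn1a, Oosp1 (0.86), Tceal8 (-2.65), Usp17lb (-1.42) and mt-Cytb (-0.66). The labels give every group replicate numbers 1 to 4. The deviations of same-numbered libraries of the 2 stages correlated at 0.0112 to 0.0985 in KO and -0.117 to -0.0729 in Het. These low values gave no ground to pair the libraries by number. They cannot show whether same-numbered libraries shared an animal, because the 2 stages are different cells. With the replicate number as a block 1536 genes were gained and 1770 lost in KO, 1740 gained and 1838 lost in Het, and 1017 were higher and 1377 lower in KO. Of the named calls the block ended that of the mt-Cytb difference (adjusted p = 0.0508). Genes with a mean under 1 FPKM, Cabin1 among them, were left out by the filter. Without it all 17956 genes were tested, and 1687 were gained and 1829 lost in KO.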

Other observations

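Of the genes listed for 2-cell embryos and not for GV oocytes, the multicopy gene model Gm5612 was at 360.5, 272.9, 499.2 and 96.2 FPKM in KO replicates 1 to 4 and at 1131.8 to 1962 FPKM in Het. Gm4027 was at 74.3 to 210.2 FPKM in KO and 23.6 to 47.8 FPKM in Het 2-cell embryos. Among genes listed for GV oocytes alone, Gm48985 was at 11.3 to 21.4 FPKM in KO oocytes. No change between stages was computed for these genes, and how reads were divided among copies is uncertain.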
